A study of Mus musculus with 4 samples.

Results

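Transcripts of 40 genes that carry out mitosis and cytokinesis were followed in B16-F10 cells, a mouse melanoma line, and were compared between cells that had left the circulation of zebrafish and cells that had not. The 40 genes were a list of G2/M kinases, chromosome, kinetochore and spindle genes, mitotic kinesins and cytokinesis genes. All 40 were found by symbol among the 53465 genes of the count table, and all 40 passed the filter on low counts, as did 12320 genes in all.

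Fluorescently marked cells had been injected into fish, taken back out and expanded in IMDM medium with serum, and polyA RNA was sequenced in 4 libraries. In 2 libraries the extravasation label read yes and in 2 it read no, the latter being the controls of the study. No other genotype, allele, drug or time was named in the labels, both groups had been infused into fish, and all RNA came from a single cell line. The growth text is the same for all samples and speaks of cells that did extravasate, also for the controls. Both extravasated libraries share a number in their sample titles and both controls share another, so its meaning and extravasation cannot be told apart. Nothing in the labels states whether replicate libraries came from different cultures or fish; the p-values therefore reflect the scatter of these samples alone, and that scatter may be technical.

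Mitosis begins when cyclin B and its kinase Cdk1 become active and the chromosomes condense. Kinetochores then attach the chromosomes to spindle microtubules, the spindle checkpoint holds back the anaphase promoting complex until attachment is complete, and the cell is cut apart by a contractile ring placed by the central spindle. Transcripts of these genes accumulate in G2 and mitosis, and their summed level is widely read as a measure of how many cells of a population are dividing. In bulk RNA, fewer cells in mitosis and less of these transcripts per cell cannot be told apart.

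The libraries held 11705904 and 16430477 counts in the controls and 13256522 and 19674733 counts in the extravasated libraries. The 7 melanocyte lineage markers were all detected and summed to 28880 and 23900 CPM in the controls (counts scaled to a common library size) and 30900 and 29900 CPM in the extravasated libraries. Markers of other mouse cells were scarce. All are mouse genes, so whether cells of the fish host were present was not tested. The leukocyte list summed to between 0.752 and 1.302 CPM with 4 of 7 genes, Ptprc among them, at 0 in every library. The fibroblast list summed to between 8.51 and 11.3 CPM with 2 of 6 at 0, and the epithelial list to between 0.694 and 1.21 CPM with 4 of 6 at 0. The endothelial list, with Cdh5, Tek and Kdr at 0 in every library, summed to 8.77 and 3.94 CPM in the controls and 15.3 CPM in each extravasated library. Most of that sum was a single gene, Vwf, at 8.68 and 3.41 CPM in the controls and 14.31 and 14.85 CPM in the extravasated libraries. The part of this list in the results was not tested.

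The promoters of many of these genes carry 2 short elements known from cell cycle genes: the CHR element, which recruits the DREAM and MuvB complexes, and the CCAAT box, which is bound by NF-Y. RefSeq promoter sequence (GRCm38.p6, from 250 bases before to 50 bases after the start) was at hand for 33 of the 40 genes; Aurkb, Ccna2, Cdc25c, Dlgap5, Kif20a, Smc4 and Tpx2 had no entry. TTTGAA, searched on both strands as the CHR element, was present in 26 of 33 promoters (78.8%), against 17.9% of all 32851 promoters in the table. CCAAT, also searched on both strands, was present in 27 of 33 (81.8%), against 37.4% of all promoters. Both motifs were present in 23 of 33 (69.7%), against 6.95% of all. A match describes these letters only and is not a measured site. Stretches of 30 bases around the match nearest to the start are shown for 8 genes to which the results return, with the match in capitals and each sequence read along the gene's own strand; TTCAAA is the same element read on the other strand.
Anln: ggggcgctgaaaTTCAAAttttgaacggcc
Kif23: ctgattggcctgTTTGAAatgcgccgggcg
Kif11: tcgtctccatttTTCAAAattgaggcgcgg
Kif4: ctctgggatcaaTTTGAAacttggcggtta
Cdk1: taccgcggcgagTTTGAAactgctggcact
Plk1: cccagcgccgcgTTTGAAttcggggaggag
Aurka: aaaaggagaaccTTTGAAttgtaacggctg
Cdc20: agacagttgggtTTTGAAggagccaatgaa

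These stretches lie at chr9:22389168-22389197 on the minus strand for Anln, chr9:61946780-61946809 on the minus strand for Kif23, chr19:37376351-37376380 on the plus strand for Kif11 and chrX:100626072-100626101 on the plus strand for Kif4. For Cdk1 the stretch lies at chr10:69352910-69352939 on the minus strand, for Plk1 at chr7:122159453-122159482 on the plus strand, for Aurka at chr2:172370521-172370550 on the minus strand and for Cdc20 at chr4:118437344-118437373 on the minus strand. The first base of the motif lies 19 bases before the RefSeq start in Kif11, 18 before it in Cdc20 and 15 before it in Cdk1, and within the 33 bases after it in the other 5. The next stretches are the 100 bases upstream of the RefSeq or the GENCODE start, whichever lies further upstream, which is the RefSeq start in Kif11 and the GENCODE start in Cdc20 and Cdk1, 9 and 26 bases before their RefSeq starts. They hold both motifs in those 3 genes, of which Kif11 fell, Cdc20 rose and Cdk1 was not called in the comparison that follows, and are shown with both motifs in capitals (ATTGG is CCAAT on the other strand). In Cdk1 the TTTGAA match in this window is a second one, further upstream than the match shown before.
Kif11: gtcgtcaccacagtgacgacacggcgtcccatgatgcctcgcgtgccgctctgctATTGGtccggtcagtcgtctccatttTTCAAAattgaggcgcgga
Cdc20: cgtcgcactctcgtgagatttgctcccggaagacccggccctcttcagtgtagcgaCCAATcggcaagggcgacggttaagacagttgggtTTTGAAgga
Cdk1: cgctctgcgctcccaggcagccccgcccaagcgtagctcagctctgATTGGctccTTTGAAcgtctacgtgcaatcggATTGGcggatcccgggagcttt

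Without a correction for base composition, most of the 40 genes were lower in the extravasated libraries, and the decrease was uneven across the machinery of division. Of the 40 genes, 22 fell and 3 rose at an adjusted p under 0.05 (edgeR quasi-likelihood test, Benjamini-Hochberg over all tested genes), and 15 were not called. Over all tested genes 25.9% were called lower and 19.1% were called higher. The median log2 fold change, extravasated minus not extravasated, was -0.83 for the 40 genes and -0.02 for all tested genes. In 28 of the 40 both extravasated libraries lay below both controls and in 7 both lay above them, against 39.0% and 37.3% of all tested genes. Without the first extravasated library 14 of the 40 were lower and 3 higher, where 15.1% and 12.7% of all tested genes were, and without the second 12 were lower and 0 higher, where 10.5% and 4.29% were. The 3 that rose were the mitotic kinases Plk1 and Aurka and the anaphase activator Cdc20, while the largest decreases were those of the kinetochore gene Cenpf and the motors Kif11 and Kif20b and of the condensin gene Smc2.

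Summed, the 40 genes took 0.678% and 0.626% of the counts in the controls (95% Wilson intervals 0.674% to 0.683% and 0.622% to 0.629%, counting error only). They took 0.444% and 0.437% in the extravasated libraries (0.44% to 0.447% and 0.434% to 0.44%). The groups did not overlap, with means of 0.652% ± 0.0373 and 0.440% ± 0.0047 (SD, n = 2 each). The exact two-sided permutation test gave p = 0.3333. That is the smallest that 2 against 2 libraries allow, so the test could not decide whether the share differed. The share was not corrected for base composition. As log2 CPM minus each gene's own mean, the median of the 40 genes was 0.47 and 0.26 in the controls and -0.28 and -0.41 in the extravasated libraries. With the GC and length correction described below it was 0.046 and 0.0271 against -0.0807 and 0.0374, and the groups overlapped.

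**Figure D1:**
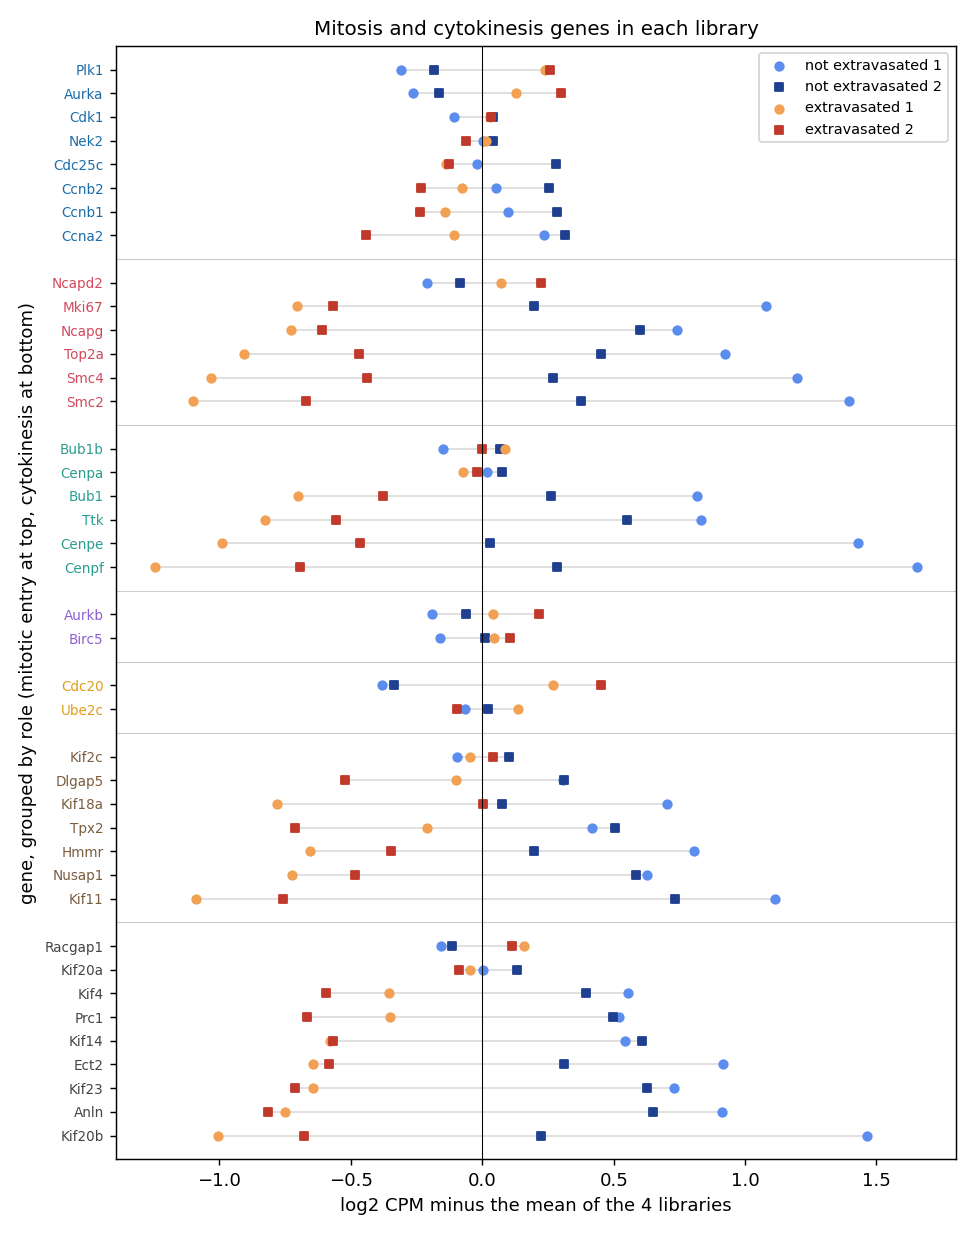
Level of each of the 40 genes in each library, as log2 CPM minus the gene's own mean over the 4 libraries, with genes grouped by role from mitotic entry at the top to cytokinesis at the bottom; blue points are the controls and orange and red points the extravasated libraries. Most spindle, chromosome and cytokinesis genes are low in both extravasated libraries, Plk1, Aurka and Cdc20 are high in both, and Cenpe, Cenpf, Smc2 and Kif20b are higher in the first control than in the second.

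Of the 8 genes that drive entry into mitosis, 2 rose and 1 fell. Plk1, the polo-like kinase of mitotic entry and spindle assembly, measured 198 and 216 CPM in the first and second control library and 289 and 294 CPM in the first and second extravasated library, the order kept throughout. Both extravasated libraries were above both controls, and Plk1 rose 1.41-fold (log2 0.49, SE 0.12, adjusted p = 0.0125, edgeR). Aurka, the kinase of centrosome maturation, measured 121 and 129 CPM in the controls and 158 and 178 CPM in the extravasated libraries and rose 1.35-fold without overlap of the groups (adjusted p = 0.028). Cdk1 itself stood at 196 and 217 CPM in the controls and 215 CPM in each extravasated library, within the spread of the controls (log2 0.06, adjusted p = 0.706).

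The cyclins that Cdk1 binds were next. Ccna2, the cyclin of S phase and G2, measured 244 and 258 CPM in the controls and 192 and 152 CPM in the extravasated libraries, and it fell 1.46-fold (adjusted p = 0.0187, edgeR). Ccnb1, the main mitotic cyclin, measured 79.6 and 90.6 CPM against 67.4 and 63.1 CPM, and Ccnb2 113.7 and 130.8 CPM against 103.8 and 93.3 CPM. For both B-type cyclins the groups did not overlap, yet neither was called, at log2 differences of -0.38 (adjusted p just above the threshold of 0.05) and -0.31 (adjusted p = 0.0953). With the kind of title suffix, a capital C or a small letter whose meaning is not given, as an added term, Ccnb1 was called lower (adjusted p = 0.0382). Nek2, a kinase that separates the centrosomes, and Cdc25c, the phosphatase that activates Cdk1, were not called either, at log2 differences of -0.05 and -0.27. Without the second extravasated library the calls of Ccna2, Plk1 and Aurka were lost (adjusted p = 0.211, 0.0900 and 0.171).

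Of the 6 genes that build mitotic chromosomes, 5 fell. Ncapg, a subunit of condensin I, measured 87.3 and 79.2 CPM in the controls and 31.4 and 34.1 CPM in the extravasated libraries. It fell 2.54-fold (log2 -1.34, SE 0.14, adjusted p = 0.000862, edgeR), with the replicates of each group close together. Top2a, the topoisomerase that untangles sister DNA, measured 696 and 502 CPM against 196 and 265 CPM and fell 2.60-fold (adjusted p = 0.00394). Mki67, the proliferation marker that coats mitotic chromosomes, measured 699 and 379 CPM in the controls and 202 and 223 CPM in the extravasated libraries. The fall of Mki67 was 2.53-fold (adjusted p = 0.0176) without overlap, and the first control was 1.85 times the second.

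The condensin ATPases repeated that gap between the controls. Smc2 measured 277 and 136 CPM in the controls and 49.0 and 66.1 CPM in the extravasated libraries and fell 3.58-fold (adjusted p = 0.0129). Smc4 measured 215 and 113 CPM against 45.7 and 69.1 CPM and fell 2.85-fold (adjusted p = 0.0225). In both genes the groups were separate. Ncapd2, another condensin I subunit, went the other way at 361 and 394 CPM against 439 and 488 CPM, and was not called (log2 0.30, adjusted p = 0.0789). The calls of Mki67, Smc2 and Smc4 were lost when either extravasated library was left out (adjusted p = 0.112 and 0.107, 0.0946 and 0.0797, and 0.133 and 0.0798, without the first and without the second).

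Kinetochore and checkpoint genes were divided, with 4 of 6 lower. Ttk, the Mps1 kinase that starts the spindle checkpoint, measured 32.4 and 26.6 CPM in the controls and 10.2 and 12.3 CPM in the extravasated libraries. Ttk fell 2.62-fold without overlap (log2 -1.39, SE 0.20, adjusted p = 0.00215, edgeR). Bub1, a second checkpoint kinase, measured 100.5 and 68.4 CPM against 35.1 and 43.9 CPM and fell 2.13-fold (adjusted p = 0.00724).

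Cenpf, a large protein of the outer kinetochore, measured 153 and 58.9 CPM in the controls and 20.3 and 29.9 CPM in the extravasated libraries. Its fall of 4.19-fold was the largest of the 40 genes, with an adjusted p of 0.021, and the first control was 2.59 times the second. Cenpe, the kinetochore kinesin that moves chromosomes to the spindle equator, measured 124 and 46.8 CPM against 23.0 and 33.2 CPM and fell 3.01-fold (adjusted p = 0.0448). Bub1b, which inhibits Cdc20 as part of the checkpoint complex, and Cenpa, the histone H3 variant that marks centromeres, were not called, at log2 differences of 0.08 and -0.09. Without the first extravasated library Bub1, Cenpe and Cenpf were not called (adjusted p = 0.0579, 0.231 and 0.136), and without the second Cenpe and Cenpf were not (0.157 and 0.106).

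None of the chromosomal passenger genes or the genes of mitotic exit fell. Aurkb, the kinase that corrects faulty attachments, measured 90.8 and 99.4 CPM in the controls and 107 and 121 CPM in the extravasated libraries. Birc5, or survivin, its partner in the passenger complex, measured 220 and 248 CPM against 253 and 265 CPM. In neither gene did the groups overlap and neither was called (log2 0.26 and 0.15, adjusted p = 0.148 and 0.355, edgeR). Cdc20, which activates the anaphase promoting complex, measured 42.2 and 43.6 CPM against 66.4 and 75.3 CPM and rose 1.65-fold (log2 0.72, SE 0.14, adjusted p = 0.0058), the largest increase of the 40. Without the second extravasated library Cdc20 was not called (adjusted p = 0.0588). Ube2c, the ubiquitin-conjugating enzyme of that complex, was not called (log2 0.05, overlapping groups).

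Of the 7 spindle genes, 5 fell and none rose. Kif11, the motor that pushes the spindle poles apart, measured 125 and 95.8 CPM in the controls and 27.03 and 34.01 CPM in the extravasated libraries. Both extravasated libraries were far below both controls and Kif11 fell 3.60-fold (log2 -1.85, SE 0.19, adjusted p = 0.000853, edgeR). Nusap1, which bundles microtubules around chromosomes, measured 65.7 and 63.9 CPM against 25.7 and 30.3 CPM and fell 2.31-fold (adjusted p = 0.00137). Tpx2, the spindle assembly factor that activates Aurka, measured 308 and 328 CPM against 199 and 141 CPM and fell 1.87-fold (adjusted p = 0.00642).

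Hmmr, a spindle pole and hyaluronan-binding protein, measured 96.9 and 63.5 CPM in the controls and 35.1 and 43.5 CPM in the extravasated libraries and fell 2.03-fold (adjusted p = 0.0116). Dlgap5, which stabilises kinetochore fibres, measured 103 CPM in each control and 77.5 and 57.8 CPM in the extravasated libraries and fell 1.53-fold (adjusted p = 0.0193). The groups were separate in both. The depolymerising kinesin Kif2c was level (log2 -0.01), and Kif18a, a kinesin that limits chromosome oscillation, had the lowest level of the 40 for its length and was not called (log2 -0.75, adjusted p = 0.104), although it was called lower with the title suffix as an added term (adjusted p = 0.00602). Without the second extravasated library Tpx2, Hmmr and Dlgap5 were not called (adjusted p = 0.0617, 0.0527 and 0.180), and without the first Hmmr was not (0.0854).

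Cytokinesis genes held the smallest adjusted p-values of the 40, with 7 of 9 lower. Anln, or anillin, the scaffold of the contractile ring, measured 256 and 213 CPM in the controls and 80.6 and 77.0 CPM in the extravasated libraries and fell 2.97-fold (log2 -1.57, SE 0.14, adjusted p = 0.000719, edgeR). Kif23, the kinesin of the centralspindlin complex, measured 139.9 and 130.3 CPM against 54.0 and 51.4 CPM and fell 2.56-fold (adjusted p = 0.000737). In both genes the replicates of a group lay close together and the groups were far apart. Racgap1, the other subunit of centralspindlin, was at 245 and 253 CPM in the controls and 305 and 296 CPM in the extravasated libraries and was not called (log2 0.27, adjusted p = 0.0849).

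Kif14, a kinesin of the midbody, measured 86.4 and 90.5 CPM in the controls against 39.6 and 39.9 CPM and fell 2.23-fold (adjusted p = 0.00104). Prc1, the bundler of the central spindle, measured 311 and 307 CPM against 170.1 and 136.5 CPM and fell 2.02-fold (adjusted p = 0.00196). Kif4, the chromokinesin that works with Prc1, measured 82.9 and 74.4 CPM against 44.1 and 37.4 CPM and fell 1.93-fold (adjusted p = 0.00279). In all 3 the groups were separate by more than the spread within them.

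Ect2, the exchange factor that switches on RhoA at the equator, measured 98.5 and 64.7 CPM in the controls and 33.3 and 34.7 CPM in the extravasated libraries and fell 2.39-fold (adjusted p = 0.00397). Kif20b, a kinesin of late cytokinesis, measured 118 and 50.1 CPM against 21.3 and 26.8 CPM and fell 3.49-fold (adjusted p = 0.0212). The call of Kif20b was lost without either extravasated library (adjusted p = 0.137 and 0.12). Its relative Kif20a, which carries the passenger complex to the midzone, measured 183 and 200.3 CPM against 177 and 172 CPM, with separate groups and no call (log2 -0.14, adjusted p = 0.386).

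Partners in the same complex were called differently: Kif23 fell while Racgap1 was not called, and Ncapg fell while Ncapd2 was not called. The difference between such partners was not itself tested. The fold changes of the 40 genes moved with the base composition of their transcripts. The GC content of the principal transcript ran from 38.3% to 56.0% with a median of 46.5%, against 50.4% for 11126 nuclear coding genes. Across the 40 genes the fold change rose with GC content (Spearman's rho 0.85, Pearson's r 0.84, n = 40 genes of the same 4 libraries, given as a description) and declined with transcript length (rho -0.67). The same held in the libraries at large, with rho 0.74 and -0.38 over the 11126 genes.

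Ordered by GC content, the 13 genes lowest in GC (38.3% to 43.4%) held 12 that fell and none that rose, and their median log2 fold change was -1.39. The middle 13 (43.4% to 48.1%) held 9 that fell, with a median of -0.95. The 14 highest (48.6% to 56.0%) held the 3 that rose and 1 that fell, and their median was 0.11. Coding stretches of 90 bases from the principal transcripts of GENCODE M21 (GRCm38) show the contrast at the level of letters, with G and C in capitals. Each was taken as a window whose GC content is near that of the gene's whole coding sequence. Those of Kif11 and Kif20b, 2 of the largest decreases, hold 38 and 36 G or C among their 90 bases, and those of Plk1 and Cdc20, 2 of the 3 increases, hold 51 and 50.
Kif11: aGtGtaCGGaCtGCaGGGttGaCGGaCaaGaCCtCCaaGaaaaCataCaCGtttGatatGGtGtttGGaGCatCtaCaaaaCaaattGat
Kif20b: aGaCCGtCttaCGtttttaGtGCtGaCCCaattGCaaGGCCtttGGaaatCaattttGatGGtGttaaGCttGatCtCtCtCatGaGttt
Plk1: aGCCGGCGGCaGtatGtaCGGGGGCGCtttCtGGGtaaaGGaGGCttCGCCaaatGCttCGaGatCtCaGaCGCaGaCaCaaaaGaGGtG
Cdc20: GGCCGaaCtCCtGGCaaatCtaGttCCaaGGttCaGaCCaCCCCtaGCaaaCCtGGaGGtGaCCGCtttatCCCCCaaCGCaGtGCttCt

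By call, the promoter motif TTTGAA was present in 15 of the 18 genes called lower that had a promoter sequence and in 11 of the 15 others, and CCAAT in 15 and 12 of them.

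**Figure D2:**
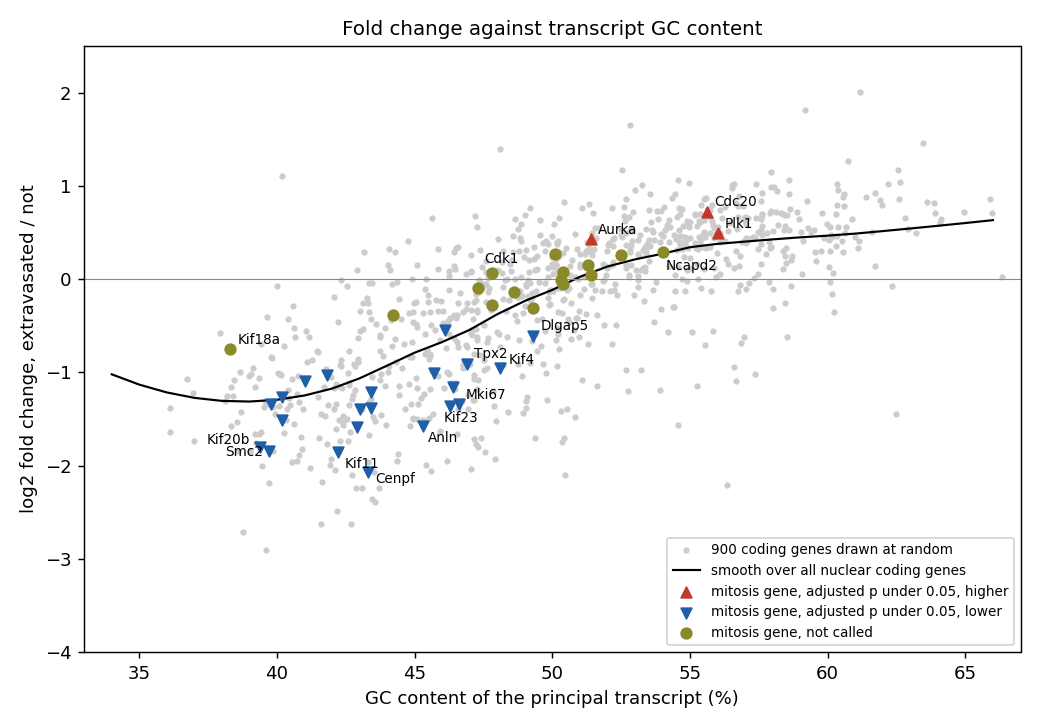
Log2 fold change, extravasated minus not extravasated, against the GC content of the principal transcript in percent, for the 40 genes (red higher, blue lower, olive not called), with a random sample of coding genes in grey and the smooth trend of all nuclear coding genes as a line. The 40 genes follow the rising trend, with Cenpf, Anln, Mki67 and Kif23 among those below it and Kif18a, Ccnb1 and Cdk1 among those above it.

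When the smooth dependence on GC content and transcript length was removed from each library before the same test, 5 of the 40 genes were called. Over all tested genes 5.80% were then called lower and 8.24% higher, and the median log2 fold change of the 40 genes was -0.15, against 0.04 for all tested genes. Kif23 (log2 -0.78, SE 0.12, adjusted p = 0.00885), Anln (log2 -0.75, adjusted p = 0.0108), Kif11 (log2 -0.66, adjusted p = 0.0282) and Kif4 (log2 -0.50, adjusted p = 0.0347) fell. Cdk1 rose (log2 0.52, SE 0.13, adjusted p = 0.0378). All 4 genes that fell had also fallen without the correction. Kif23, Anln and Kif4 were 3 of the 9 cytokinesis genes. The rest of the 9, among them Racgap1 (log2 0.33), Ect2 (0.01) and Prc1 (-0.38), were not called. Among 25 tested cytokinesis genes outside the 40, the corrected fit called 2 higher and 1 lower. Neither Plk1 (log2 0.07), Aurka (0.27) nor Cdc20 (0.27) was called.

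The genes with the largest uncorrected decreases came closer to 0: Cenpf went from -2.07 to -0.49, Smc2 from -1.84 to -0.43, Kif20b from -1.80 to -0.35, Top2a from -1.38 to -0.26 and Mki67 from -1.34 to -0.29, none of them called. Across the 40 genes the corrected fold change still had rho 0.26 with GC content and -0.35 with length, where the 11126 coding genes had 0.01 and -0.02. With either control left out all 5 corrected calls were kept (adjusted p between 0.000462 and 0.0228). With the first extravasated library left out no gene of the 40 was called, and Anln, Kif23, Kif11, Kif4 and Cdk1 had adjusted p of 0.116, 0.101, 0.211, 0.192 and 0.143. With the second left out none was called either, at 0.135, 0.123, 0.123, 0.284 and 0.302. Each of those edgeR fits held a single extravasated library and called few of all tested genes. Without the first, the log2 differences of Anln, Kif23, Kif11, Kif4 and Cdk1 were -0.69, -0.71, -0.49, -0.52 and 0.61. Without the second they were -0.80, -0.83, -0.85, -0.45 and 0.44.

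**Figure D3:**
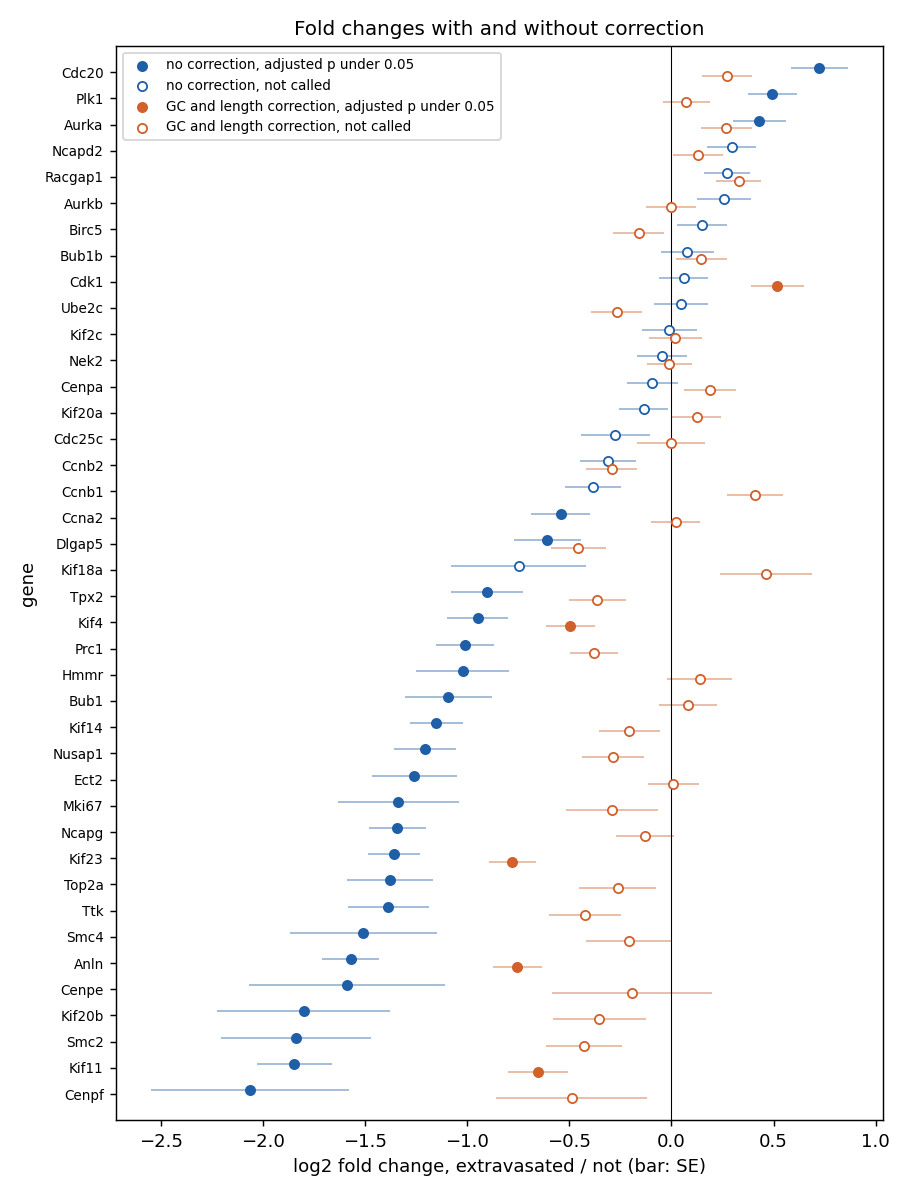
Log2 fold change of each of the 40 genes without (blue) and with (orange) the GC and length correction, filled where the adjusted p was under 0.05, with bars of 1 SE. Most decreases shrink toward 0, while Kif23, Anln, Kif11 and Kif4 remain called lower and Cdk1 becomes called higher.

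The spread between libraries of a group was itself uneven across the 40 genes. In 9 of them the first control was more than 1.5 times the second and in none the reverse, the ratio running from 0.812 to 2.647. Those with the widest gaps were Cenpe, Cenpf, Kif20b, Smc2, Smc4 and Mki67. Some genes outside the 40 had such a gap too, as Nipbl (89 and 41 CPM) and Smc3 (246 and 127 CPM). Others, as Smc1a (184 and 166 CPM), did not. The share of all tested genes with such a gap was not counted. Between the extravasated libraries the ratio of the first to the second ran from 0.578 to 1.417, and 2 genes were more than 1.5 times higher in the second. Mitochondrial transcripts took 8.21% and 7.12% of the counts in the controls and 6.51% and 8.88% in the extravasated libraries. Their part in the results was not tested.

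By level per length, averaged over the 4 libraries as CPM per kilobase of the principal transcript, the 40 genes had a median of 30.8. The highest were Birc5 at 260.1, Ube2c at 180 and Plk1 at 113 CPM per kilobase, and the lowest were Kif18a at 3.98 and Cenpf at 5.88 CPM per kilobase. The least covered gene, Kif18a, had 96 counts in its lowest library, and the highest count of any of the 40 in a library was 9263.

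Some of these values carry reads that a neighbour could share, since the strand setting of the counting is not given in the sources used here. On the opposite strand, exons of Kif4 overlap Pdzd11 over 832 bases and Pdzd11 held more counts than Kif4 (5787 against 3532 over the 4 libraries). Prc1 overlaps Rccd1 over 911 bases, Ncapg overlaps Lcorl over 944, Kif20a overlaps Cdc23 over 1271 and Ccna2 overlaps Exosc9 over 510, and in these 4 pairs the gene of the 40 held the most counts. Cdc20 overlaps Elovl1 over 53 bases, and Elovl1 held more counts (4058 against 3546) and had a log2 fold change of 0.77. Ccnb1 has pseudogenes of at least 95% identity, of which 3 in the table held 2, 8 and 1 counts against 4572 for Ccnb1. Racgap1 also has such a copy, over 488 aligned bases. How reads that match both copies were counted is not given, so levels of Ccnb1 and Racgap1 remain uncertain.

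Further genes of division, taken from lists by role, were counted in the same fit, where 126 of 220 tested were called, against 45.1% of all tested genes. Without the first extravasated library 83 were called, against 27.8% of all genes, and without the second 48, against 14.7%. With the correction 30 of 220 were called, against 1729 of all 12320 tested genes, and 5 and 0 without those libraries, where 1.04% and 0.0157% of all genes were. Without the correction 19.1% of all tested genes were called higher and 25.9% lower, and with it 8.24% and 5.80%. The counts of each list below stand beside these shares. Entry regulators were balanced without the correction, with 7 of 27 higher and 7 lower (median log2 0.16). The corrected fit called 4 higher and 1 lower (median 0.28). Foxm1, a transcription factor of G2/M genes, measured 293 and 277 CPM in the controls and 405 and 420 CPM in the extravasated libraries and rose (log2 0.53, adjusted p = 0.00829, edgeR). Mybl2, or B-Myb, the MuvB partner that activates the same promoters, rose too (log2 0.63, adjusted p = 0.01), and so did the cyclin Ccnf (log2 0.56, adjusted p = 0.00987). Foxm1, Mybl2 and Ccnf were not called with the correction (log2 0.34, 0.30 and 0.39). Nek7, a kinase needed for spindle formation, fell (log2 -1.84, adjusted p = 0.000719), as did the MuvB subunits Lin54 (log2 -1.40) and Lin9 (log2 -1.48). Nek7 kept its call under the correction (log2 -0.51, adjusted p = 0.0382), while Lin54 (-0.21) and Lin9 (-0.45) did not. Wee1, the kinase that restrains Cdk1, measured 42.2 and 38.4 CPM against 37.0 and 29.6 CPM and was not called (log2 -0.28, adjusted p = 0.211).

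Of 18 genes of the condensin and cohesin complexes outside the 40, 12 were lower and 3 higher (median log2 -1.08). After the correction 2 were lower and 0 higher (median -0.14). The cohesin ring subunit Smc1a measured 184 and 166 CPM in the controls and 68.1 and 65.5 CPM in the extravasated libraries and fell (log2 -1.39, adjusted p = 0.000719), as did the cohesin regulators Pds5a (log2 -1.86) and Wapl (log2 -1.74). Ncaph2 of condensin II, separase, which is encoded by Espl1, and sororin, encoded by Cdca5, rose (log2 0.57, 0.49 and 0.51). Smc1a kept its call under the correction (log2 -0.79, adjusted p = 0.00885), and Smc3, the other ring subunit, was also called in both fits (log2 -2.29 uncorrected and -1.08 corrected).

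Of 27 other outer kinetochore and checkpoint genes 12 were lower and 7 higher (median log2 -0.25). In the corrected fit 1 was lower and 3 were higher (median 0.14). Kntc1, a subunit of the Rod-Zwilch-ZW10 complex, fell (log2 -1.42, adjusted p = 0.00077), as did the cohesin protector Sgo1 (log2 -1.28) and the microtubule-binding Ndc80 (log2 -1.12). Pmf1, Mad1l1 and Spc24 rose (log2 0.92, 0.55 and 0.47). Among 19 genes of the constitutive centromere network 6 were lower, Cenpc1, Cenpk and Cenpi foremost (log2 -1.69, -1.11 and -0.74), and Cenpx, Cenps and Cenpt were higher (log2 0.70, 0.75 and 0.66). The corrected fit called 0 of these 19 lower and 1 higher (median 0.24). The anaphase promoting complex had 5 of 18 higher and 3 lower (median log2 0.00), and 2 higher and 1 lower after correction (median 0.23). Its enzyme Ube2s and its activator Fzr1 rose with the subunit Anapc7 (log2 0.86, 0.75 and 0.62), and its inhibitor Fbxo5 fell with Anapc4 and Cdc27 (log2 -1.51, -0.57 and -1.37).

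Spindle and centrosome genes outside the 40 had 16 of 34 lower and 7 higher (median log2 -0.44). After the correction 3 were lower and 0 higher (median -0.05). Kif15, a motor that can stand in for Kif11, measured 77.7 and 55.6 CPM in the controls and 18.6 and 18.2 CPM in the extravasated libraries and fell (log2 -1.86, adjusted p = 0.000858). It was also called after the correction (log2 -0.71, adjusted p = 0.0191). Cenpj and Ckap2 fell as well (log2 -1.95 and -1.25), and Tubg1, Kifc1 and Kif18b rose (log2 0.77, 0.79 and 0.47). Of 25 other cytokinesis genes 12 were lower and 3 higher (median log2 -0.45). The corrected fit called 1 lower and 2 higher (median 0.03). Cep55, which recruits the abscission machinery to the midbody, measured 93.6 and 71.1 CPM against 32.3 and 27.6 CPM and fell in both fits (log2 -1.46, adjusted p = 0.00131, and corrected log2 -0.998, adjusted p = 0.00879). Shcbp1 and Vps4b fell (log2 -1.21 and -1.36), and Sept9, Chmp6 and Rhoa rose (log2 0.52, 0.59 and 0.39).

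Genes of DNA replication were set beside these as a reference for another phase of the cycle. Of 37 G1/S genes 15 were higher and 5 lower (median log2 0.28), and with the correction 7 were higher and 1 lower (median 0.28). Of all tested genes, 19.1% were higher and 25.9% lower without the correction, and 8.24% and 5.80% with it. Mcm5, a subunit of the replicative helicase, measured 402 and 434 CPM in the controls and 644 and 693 CPM in the extravasated libraries and rose in both fits (log2 0.68, adjusted p = 0.00377, and corrected log2 0.57, adjusted p = 0.0224). The licensing factor Cdt1 and the polymerase gene Pold1 rose (log2 0.78 and 0.80), and Slbp, Mcm4 and Pola1 fell (log2 -0.96, -0.80 and -1.55). No difference between the replication list and the 40 mitotic genes was tested. Of 17 tested genes of cell cycle arrest 4 were lower and 1, Trp53, was higher (log2 0.53), where 25.9% and 19.1% of all tested genes were. In the corrected fit 1 of the 17 was lower and 0 higher.

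Cdkn1a, the p21 inhibitor, was the most variable of the arrest genes named, at 259 and 72.3 CPM in the controls and 132 and 153 CPM in the extravasated libraries, which lay between them (log2 -0.22, adjusted p = 0.795). Cdkn1b, the p27 inhibitor, fell from 75.8 and 115.5 CPM to 51.03 and 49.97 CPM (log2 -0.92, adjusted p = 0.0108) and had a corrected log2 difference of 0.12. The pocket protein genes Rbl1 and Rb1 fell (log2 -1.33 and -1.95), Rb1 also with the correction (log2 -0.69, adjusted p = 0.0494). Over all these lists the correction moved calls in both directions. Mad2l1, the Mad2 checkpoint protein, was lower without it (log2 -0.54, adjusted p = 0.00935) and higher with it (log2 0.93, adjusted p = 0.0179), and Arpp19, which helps to keep Cdk1 substrates phosphorylated, turned in the same way (log2 -0.62 and 0.61).

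**Figure D4:**
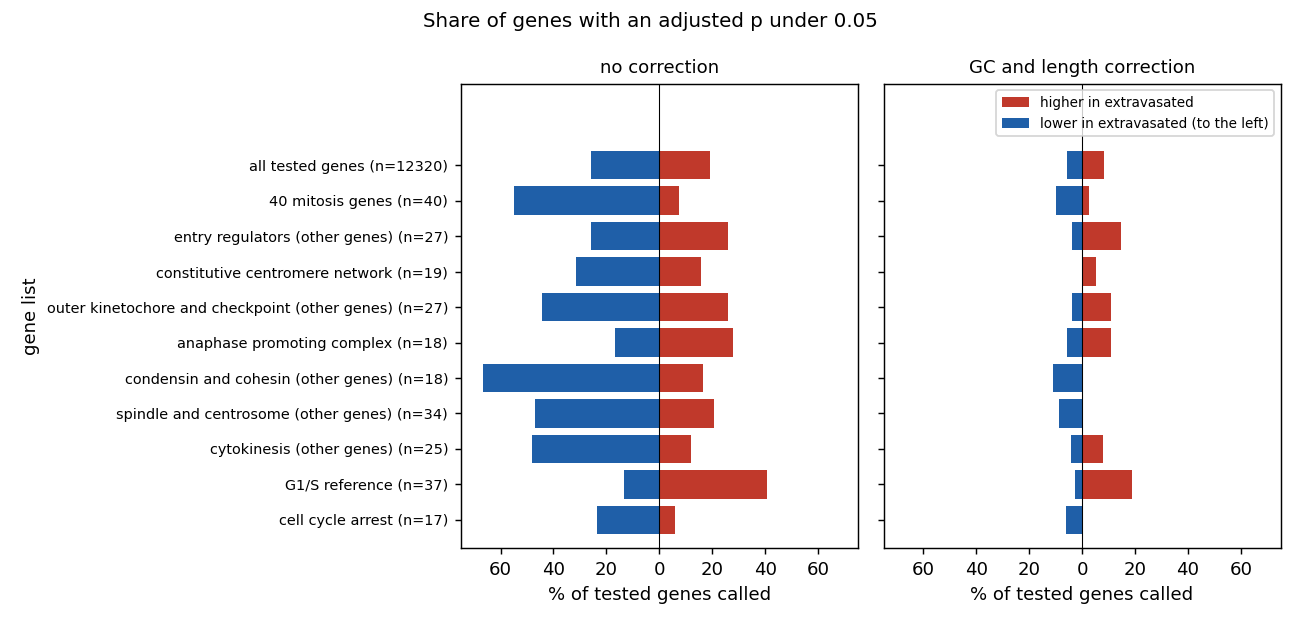
Share of the tested genes of each list, in percent, called lower (drawn to the left) and higher (to the right) in the extravasated libraries, without and with the GC and length correction, beside the 40 genes and all tested genes. Without the correction the condensin and cohesin list, at 12 of 18, and the 40 genes, at 22 of 40, have the largest shares called lower, and the G1/S list, at 15 of 37, the largest share called higher.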

How the data were processed

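The authors deposited unnormalized whole-number counts of reads per gene for 4 libraries made with a stranded TruSeq mRNA kit, per the labels' protocols. Tools were STAR 2.5.3a and bcl2fastq 2.18.0.12, per the submitters' processing notes; how reads were counted, with which strand setting and annotation, is not given in the sources used here. Genes were tested with edgeR 4.0.16 (R 4.3.3) after its expression filter (minimum count 10, minimum total count 15), with TMM factors, robust quasi-likelihood dispersion and Benjamini-Hochberg adjustment over all 12320 tested genes at 0.05; CPM values use the TMM-scaled library sizes. Names, coordinates and principal transcripts came from GENCODE M21 (GRCm38), where 53360 of 53465 identifiers matched without their version. The correction used a smooth of GC content and length (mgcv 1.9-3, basis size 10) as an offset per library. The script was tested on simulated data. The 40 genes, the lists and the correction were chosen with earlier results of these data known, so lists get counts and medians but no test. An exception is the permutation test of the summed share of counts, which could not decide. Values in every library were given for called genes leading a role, genes whose call depends on the correction and a fixed set of markers, and up to 3 called genes per direction of each other list were named, plus Foxm1, Mybl2, Wee1, Cdkn1a and Cdkn1b. Alternatives were other scalings, DESeq2 1.42.0, limma-voom (limma 3.58.1), other filters and leaving out each library.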

Additional observations from a re-analysis of the deposited data

How the results depend on the processing

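The least covered of the 40 genes held 96 counts in its lowest library, and whether depth or the number of libraries limited the calls was not tested. With RLE size factors, 21 of the 40 genes and 5669 of all 12320 tested genes were called, and Kif2c turned to 0.0136 (0.0229 by DESeq2). Smc4, Cenpe, Cenpf and Kif20b lost their calls with these factors. Cenpe was also not called with upper quartile factors, by DESeq2 or without the expression filter. Cenpf was not called without that filter either (adjusted p = 0.272, edgeR), and Aurka was not called with library totals. Upper quartile factors moved the median of all genes to 0.07. They called 5 of the 40 higher and 21 lower, against 3034 and 2947 of all 12320 tested genes. They turned Nek2 to 0.045 and Kif2c to 0.0804, and library totals turned Ube2c to -0.0087. A test against a fold of 1.5 called 1719 genes, 0 of the 40 higher and 12 lower and 39 list genes. A threshold of 0.01 called 2792 genes, 1 of the 40 higher and 13 lower and 61 list genes, where the reported fit called 5551 genes and 126 list genes.

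With the GC and length correction 1729 genes were called, 1 of the 40 higher and 4 lower, the median was -0.15 and 30 list genes were called. The sign turned for Ccna2 (0.0209), Ccnb1 (0.41), Bub1 (0.0797), Cenpa (0.19), Aurkb (-0.0012), Birc5 (-0.16), Ube2c (-0.27), Kif2c (0.0195), Kif18a (0.46), Hmmr (0.14), Kif20a (0.12) and Ect2 (0.0087). Taken on the longest transcript, it called 1669 genes, 2 of the 40 higher (Cdk1, and Birc5 at 0.52 with adjusted p = 0.0415) and 5 lower and 36 list genes, with a median of -0.0586, and turned Ccnb1 (0.36), Bub1 (0.0578), Cenpa (0.14), Aurkb (-0.0384), Ube2c (-0.38), Kif18a (0.44), Hmmr (0.12) and Kif20a (0.13). GC alone called 2202 genes, 0 of the 40 higher, 5 lower and 50 list genes, with a median of -0.031; Cdk1 was then not called (adjusted p = 0.0506). It turned Ccna2 (0.0643), Ccnb1 (0.49), Cdc25c (0.10), Ncapd2 (-0.0186), Bub1 (0.14), Cenpa (0.37), Ube2c (-0.0421), Kif2c (0.0355), Kif18a (0.52), Hmmr (0.16), Kif20a (0.14) and Ect2 (0.0226). The correction removes a dependence on GC content and length from these same libraries, and the cause of the differences was not tested.

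With each library left out in turn, with and without the correction, between 2 and 6251 genes, 0 and 4 of the 40 higher, 0 and 24 lower and 0 and 138 list genes were called, and the median ran from -0.94 to -0.0122. The low ends came from the corrected fits without an extravasated library. In the uncorrected fits, 3 and 14 of the 40 were called higher and lower without the first extravasated library and 0 and 12 without the second. Log2 differences spanned 0 in these fits for Cdk1 (-0.0116 to 0.63), Bub1b (-0.0247 to 0.28), Kif2c (-0.10 to 0.14), Nek2 (-0.0666 to 0.0302), Cenpa (-0.12 to 0.31), Ccnb1 (-0.47 to 0.60), Mki67 (-1.71 to 0.0604), Smc4 (-1.89 to 0.0517), Bub1 (-1.34 to 0.20), Cenpe (-2.12 to 0.44), Cenpf (-2.59 to 0.0675), Aurkb (-0.0672 to 0.44), Birc5 (-0.27 to 0.27), Ube2c (-0.33 to 0.20), Kif18a (-1.17 to 0.75), Hmmr (-1.29 to 0.30), Kif20a (-0.20 to 0.21), Kif20b (-2.29 to 0.0359), Ect2 (-1.53 to 0.0891), Ccna2 (-0.63 to 0.11), Cdc25c (-0.42 to 0.19) and Ncapg (-1.41 to 0.0379). Kif23, Anln, Kif11 and Kif4 kept their sign in every fit, and each uncorrected fit with a library left out called them. The same held for Top2a, Ttk, Nusap1, Kif14 and Prc1. No paired analysis was possible because the sample names carry no replicate number: 1 library of each group ends in a capital C and the others in different small letters, with no meaning given. With that kind of suffix as an added term 6165 genes, 3 of the 40 higher and 24 lower and 140 list genes were called, Ccnb1 and Kif18a being gained and none lost.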
